A study of Sus scrofa with 10 samples.

Results

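The glutathione, thioredoxin and antioxidant genes described here were chosen by gene name, with no filter on level. Earlier results of these data were known when the names were chosen. They comprise the enzymes that make and use glutathione, the thioredoxins, reductases and thioredoxin-domain proteins, the peroxiredoxins, superoxide dismutases and catalase, the haem oxygenases and quinone reductases, the metallothioneins, and the regulator NRF2 (NFE2L2) with its inhibitor KEAP1. Of 25009 gene rows, 61 carried such a name and had an estimate in both groups, under 57 symbols. RNA from the hypothalamus of 10 Iberian x Landrace backcross pigs was sequenced, from 5 animals of high growth and fatness (High) and 5 of low growth and fatness (Low). Sex, age and diet were not given in the sources used here. Each gene has 1 FPKM value per group (fragments scaled for transcript length and library size) with a lower and an upper bound, given in parentheses where printed, and the confidence level of the bounds is not stated. There were no values per animal, so no difference below has a replicate check and no test across animals could be made. The depth of each sample is unknown.

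Cells turn superoxide into hydrogen peroxide with superoxide dismutases and then remove the peroxide with catalase, glutathione peroxidases and peroxiredoxins. Glutathione and thioredoxin supply the electrons for the peroxidases and are themselves restored by reductases that draw on NADPH. Under oxidative stress NRF2 escapes KEAP1 and switches on many of these genes, and metallothioneins bind zinc and copper. In the hypothalamus oxidants are also part of nutrient sensing, as shown in rodents.

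The differences between the groups were small and mostly in one direction. Of the 61 rows, 54 had the lower value in High, 5 the higher value and 2 were listed at 0 in both groups. The median difference in log2(FPKM + 1), High minus Low, was -0.19, and the rows ran from -0.56 to 0.31. No row differed by 1.5-fold on that scale, and no pair of deposited intervals was apart. Over all 24951 rows with an estimate, 3.08% were lower in High by 1.5-fold and 4.32% differed by that much in either direction. Intervals were apart in 0.273% of rows with the lower value in High and in 0.016% with the higher value in High. With shares this small, 0 of 61 is near what the whole table gives and is no result about these genes. A difference of 0.32 on the log2 scale was reached by 15 of the 61 rows with the lower value in High and by 0 with the higher value, against 11% and 4.06% of all rows. The shares of all rows are no like background, since 9670 rows had a mean under 1 FPKM, where adding 1 shrinks differences. Only 6 of the 61 rows were that low. At 20 FPKM or more, 5 of 30 antioxidant rows and 25.6% of all rows reached 0.32 with the lower value in High.

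The shared direction also has to be read against the table. A lower value in High was found in 54.3% of all rows with an estimate, in 67.7% of those at a mean of 1 FPKM or more, and in 82.3% of those at 20 FPKM or more. The antioxidant genes are abundant: the median row stood above 84.6% of all rows in mean level, and 30 of 61 rows had a mean of 20 FPKM or more. Of these 30 rows, 28 were lower in High, and their median difference was -0.20, beside -0.19 for the 3418 rows of the table at that level. A difference of 0.32 was reached by 5 of the 30 rows, all lower in High (PRDX1, PRDX2, PRDX3, PRDX6 and CAT, named after their values were seen), against 25.6% of the table at that level, and 1.5-fold by 0, against 6.29%. At 1 to 5 FPKM the median was -0.20 for 6 antioxidant rows and -0.04 for 5675 rows of the table. At 5 to 20 FPKM it was -0.23 for 19 antioxidant rows and -0.10 for 6188 rows of the table, and at 20 to 100 FPKM it was -0.21 for 21 antioxidant rows and -0.18 for 2766 rows of the table. At 100 FPKM or more the order was the other way, with -0.14 for 9 antioxidant rows and -0.29 for 652 rows of the table. The level classes were chosen after the values were seen. Rescaling the groups to each other took the median of all rows at 1 FPKM or more to about 0. Then 45 of 61 antioxidant rows were lower in High after median-of-ratios scaling and 38 after quantile normalization. The share of all rows lower in High after each scaling was not counted, so these counts have no background and are not read as an excess.

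**Figure D1:**
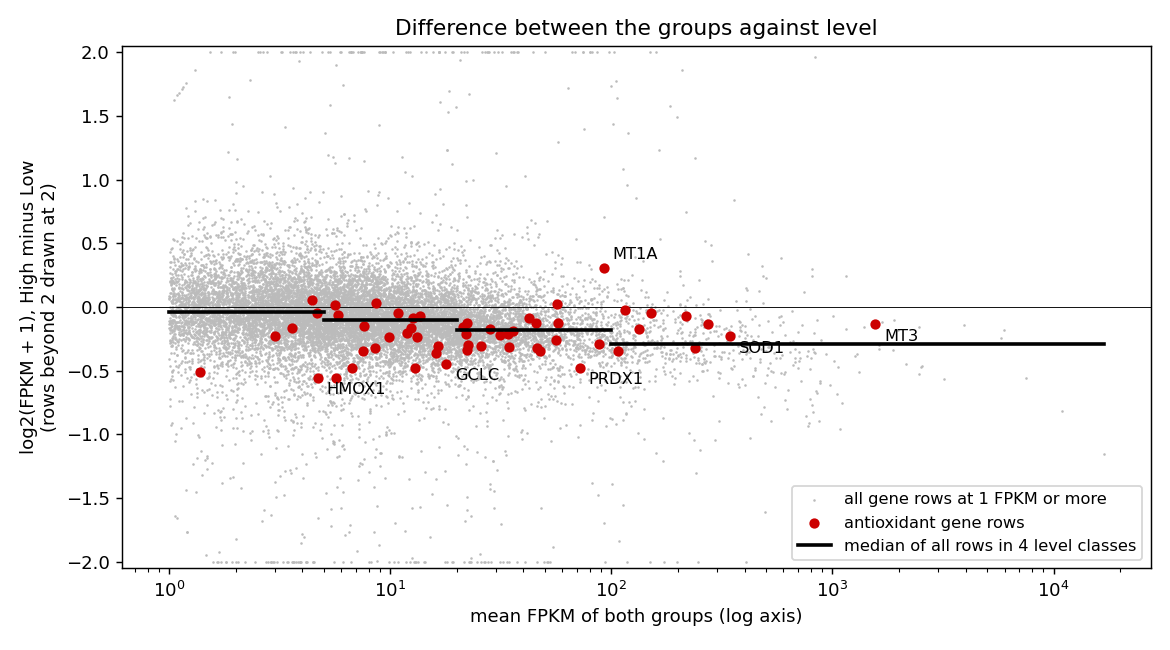
Difference in log2(FPKM + 1), High minus Low, against the mean FPKM of both groups on a log axis, for 55 antioxidant gene rows (red) and all 15281 gene rows (grey) at 1 FPKM or more, with rows beyond 2 in either direction drawn at 2. Black bars are the medians of all rows at 1 to 5, 5 to 20, 20 to 100 and 100 or more FPKM (-0.04, -0.10, -0.18 and -0.29), and the red points lie among the grey ones at each level.

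The widths of the deposited intervals set what could have been separated. For the 55 rows at 1 FPKM or more, the median half-width was 32.5% of the value in High and 38.2% in Low. With those widths kept, the intervals of the median row would part, with High as the lower value, at a High to Low ratio of 0.47, and those of the row with the narrowest bounds at 0.51. The ratio of the deposited values ran from 0.54 to 1.24, with a median of 0.86. Where High was the lower value, a High value above about 0.51 of the Low value would thus have left the intervals overlapping in each of these rows.

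**Figure D2:**
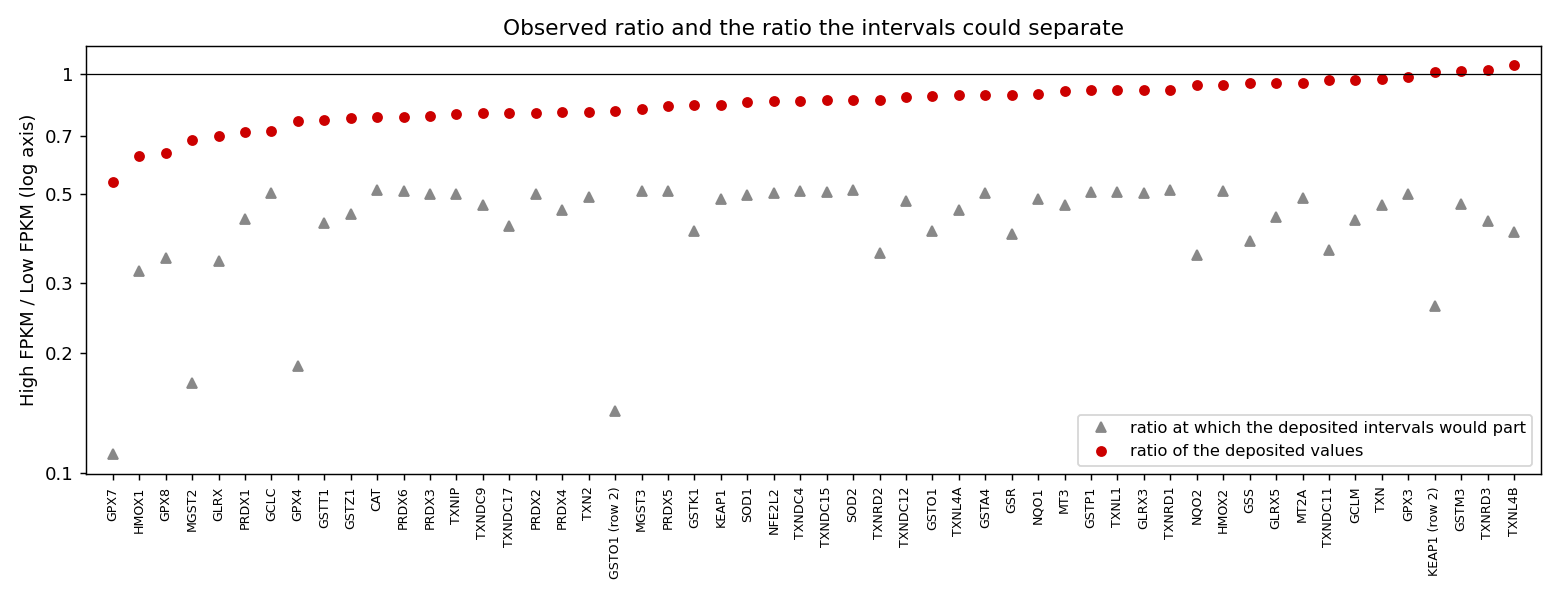
High to Low ratio of the deposited FPKM values (red points) and the ratio at which the deposited intervals would part if their relative widths stayed the same with High as the lower value (grey triangles), on a log axis, for 54 rows at 1 FPKM or more. Every red point lies above its triangle; MT1A is not drawn because its interval in Low reaches 0.

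Levels differed far more between the genes than between the groups. FPKM is a value per length, so levels of different genes can be set beside each other, but only roughly. MT3, the brain metallothionein first described as a growth inhibitory factor for neurons, had by far the highest value. It was at 1485 FPKM (1018 to 1951) in High and 1632 FPKM (1009 to 2254) in Low. Its assembled locus is shared with MT1A and a pair of unnamed rows, so its level is uncertain. The cytosolic copper and zinc superoxide dismutase SOD1 came next, at 316 FPKM (225 to 408) in High and 371 FPKM (239 to 504) in Low. The interval of MT3 lay above that of SOD1 in both groups. It was the only step in the order of the 61 rows at which neighbours were apart in either group. Below SOD1 followed GSTP1, PRDX2, the row named MT2A, TXN, GSTA4, GPX3 and PRDX3, the other rows at a mean of 100 FPKM or more. All 9 of these rows had the lower value in High, as had 87.7% of the 652 rows of the table at that level.

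**Figure D3:**
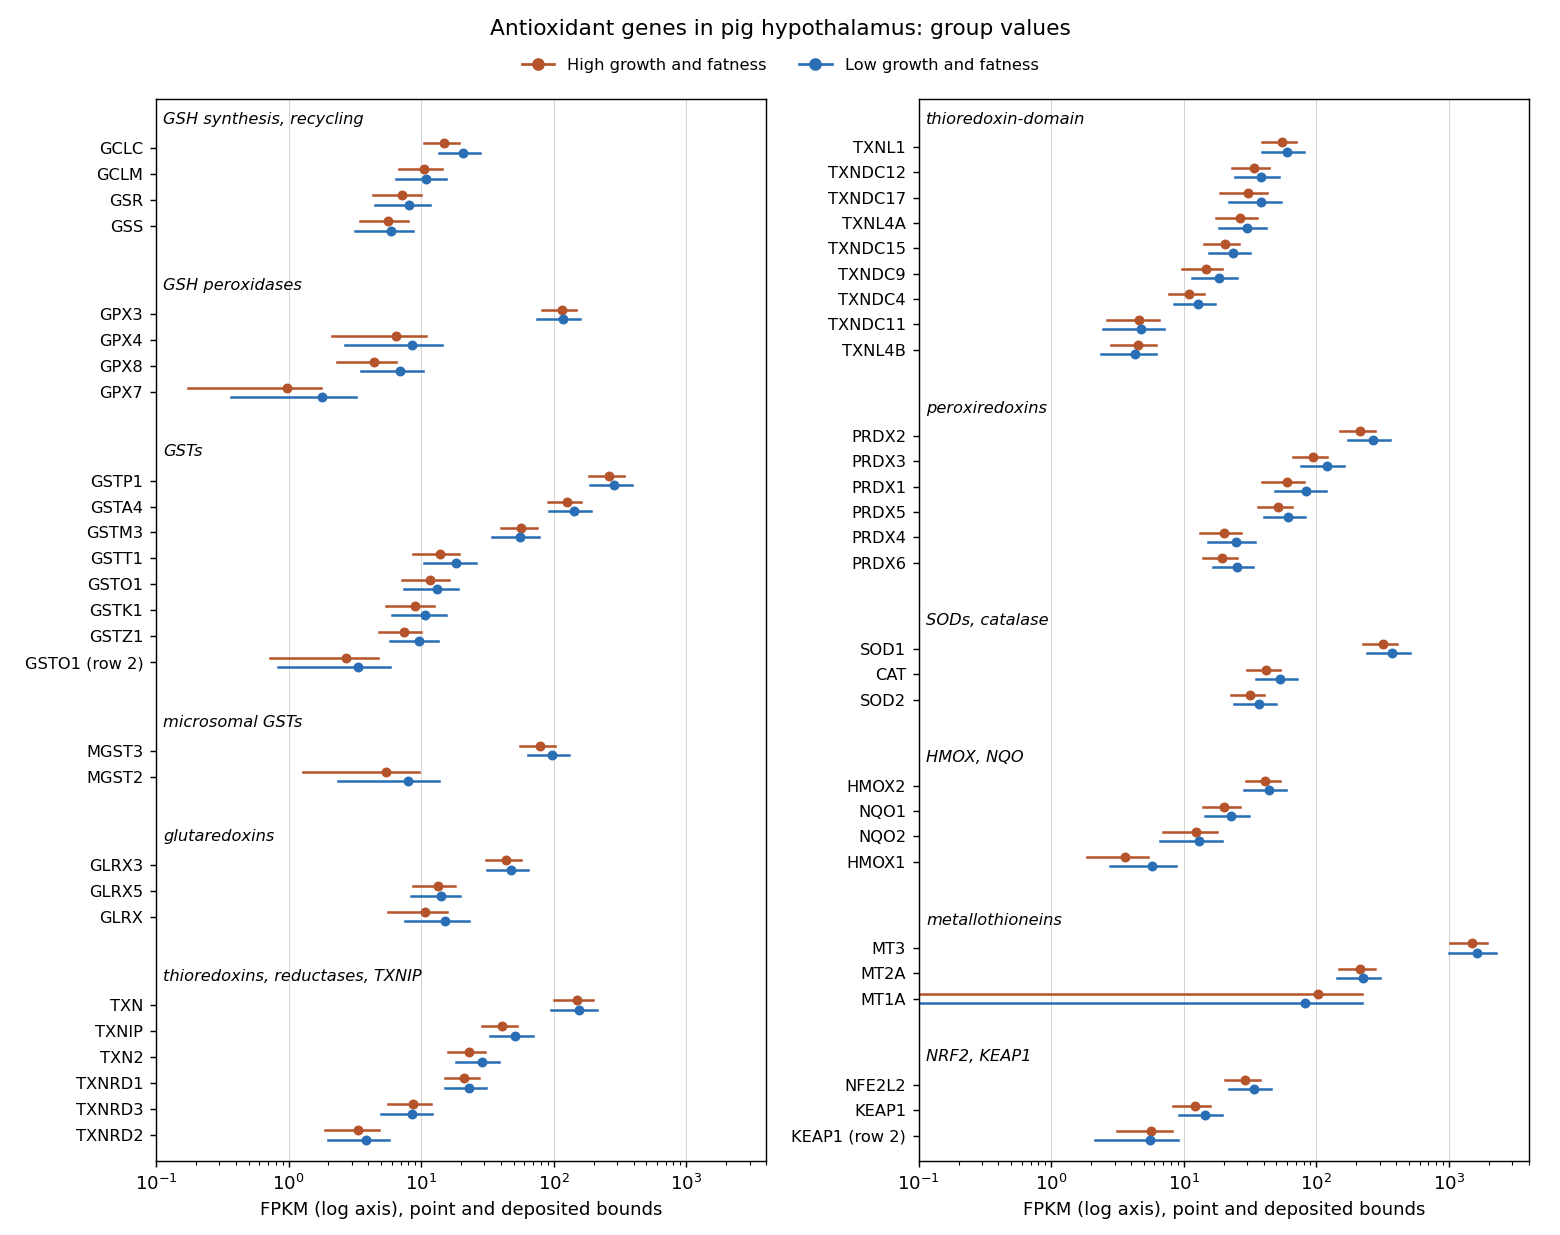
FPKM on a log axis of the 55 antioxidant rows at a mean of 1 FPKM or more, by role, with the High value (orange) drawn above the Low value (blue) and the deposited bounds as lines. Bounds overlap in every row, and the bounds of MT1A reach 0 and are drawn to the axis limit of 0.1.

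Glutathione synthesis and recycling had 4 rows, all lower in High, with a median of -0.11. All 4 had a mean of 5 to 20 FPKM, where 69.4% of all rows were lower in High. GCLC, the catalytic subunit of the rate-limiting enzyme of glutathione synthesis, was at 15.0 FPKM (10.6 to 19.4) in High and 20.8 FPKM (13.6 to 28.0) in Low, a difference of -0.45. GCLM, the modifier subunit of the same enzyme, was at 10.6 FPKM (6.79 to 14.4) in High and 11.0 FPKM (6.43 to 15.5) in Low. The catalytic subunit thus stood at 1.42 times the modifier subunit in High and 1.90 times in Low, a pair picked after its values were seen. Glutathione synthetase, GSS, was at 5.66 FPKM (3.43 to 7.89) in High and 5.96 FPKM (3.18 to 8.75) in Low, and it shares its assembled locus with an ACSS2 row. Glutathione reductase, GSR, which restores oxidised glutathione, was at 7.18 FPKM (4.35 to 10.0) in High and 8.08 FPKM (4.48 to 11.7) in Low. For GCLM and GSS the sign turned positive after median-of-ratios scaling and after quantile normalization.

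Glutathione peroxidases had 7 rows, all lower in High, against 54.3% of all rows with an estimate and 67.7% of those at 1 FPKM or more. The 7 rows had a median of -0.35, but 3 of them were under 1 FPKM. The secreted enzyme GPX3 made up 90.3% of the summed FPKM of these rows in High and 86.5% in Low. Its level was 115 FPKM (82.1 to 147) in High and 117 FPKM (74.9 to 158) in Low, a difference of -0.02 that turned positive under both scalings. GPX4, which reduces lipid peroxides in membranes, was at 6.51 FPKM (2.13 to 10.9) in High and 8.54 FPKM (2.65 to 14.4) in Low. The peroxidases of the endoplasmic reticulum had larger differences than GPX3 and GPX4. GPX8 was at 4.41 FPKM (2.33 to 6.48) in High and 6.95 FPKM (3.55 to 10.4) in Low, a difference of -0.56. GPX7 was at 0.967 FPKM (0.175 to 1.76) in High and 1.80 FPKM (0.365 to 3.23) in Low, a difference of -0.51, and its row lies on an unplaced scaffold. The intestinal peroxidase GPX2 was at 0.340 FPKM in High and 0.389 FPKM in Low. A pair of rows named GPX5, the epididymal peroxidase, was near 0, at 0.0674 and 0 FPKM in High against 0.530 and 0.00979 FPKM in Low, with lower bounds of 0 in both groups. The reference table gives the first of these rows the symbol GPX6. GPX1 was not analysed here.

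Glutathione S-transferases, which join glutathione to electrophiles, had 9 cytosolic and mitochondrial rows, with 7 lower and 1 higher in High and a median of -0.17. GSTP1 was at 262 FPKM (186 to 338) in High and 287 FPKM (188 to 386) in Low, and it held 53.5% of the summed FPKM of these rows in High and 53.2% in Low. GSTA4, which clears the lipid peroxidation product hydroxynonenal, was at 126 FPKM (90.9 to 161) in High and 142 FPKM (91.6 to 192) in Low. GSTM3 was at 57.0 FPKM (39.7 to 74.3) in High and 56.1 FPKM (34.5 to 77.7) in Low, the row with the higher value in High. GSTT1, GSTO1, GSTK1 and GSTZ1 had differences of -0.36 to -0.17. GSTT1 and GSTO1 have a second row each, 1 listed at 0 in both groups and named GSTT4 in the reference table, the other on an unplaced scaffold at 2.70 FPKM in High and 3.34 FPKM in Low. Reads of such copies may be split, so their values are uncertain. The signs of GSTP1 and GSTA4 turned positive after quantile normalization.

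The membrane-bound transferases MGST3 and MGST2 were both lower in High, with a median of -0.38. MGST3 was at 79.4 FPKM (56.1 to 103) in High and 97.3 FPKM (64.2 to 130) in Low. MGST2 was at 5.47 FPKM (1.29 to 9.65) in High and 8.00 FPKM (2.38 to 13.6) in Low, with bounds that span most of the level. Among glutaredoxins, which remove glutathione from proteins or handle iron-sulfur clusters, the cytosolic GLRX was at 10.6 FPKM (5.66 to 15.6) in High and 15.2 FPKM (7.62 to 22.8) in Low, a difference of -0.48. GLRX3, of iron-sulfur cluster supply, was at 43.6 FPKM (30.7 to 56.5) in High and 47.8 FPKM (31.2 to 64.3) in Low. The mitochondrial GLRX5, of the same supply, was at 13.3 FPKM (8.61 to 18.0) in High and 14.0 FPKM (8.32 to 19.7) in Low. Both had smaller differences than GLRX, -0.13 and -0.07. Both turned positive after quantile normalization, and GLRX5 also after median-of-ratios scaling.

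The thioredoxin system had 6 rows, 5 lower and 1 higher in High, with a median of -0.14. Cytosolic thioredoxin, TXN, was at 149 FPKM (101 to 198) in High and 154 FPKM (95.5 to 212) in Low, a difference of -0.04 that turned positive under both scalings. Its assembled locus is shared with TXNDC8. TXNIP, which binds and inhibits thioredoxin and is induced by glucose, was at 40.8 FPKM (28.7 to 52.9) in High and 51.3 FPKM (33.2 to 69.3) in Low, a difference of -0.32. TXNIP therefore stood at 0.27 of the TXN level in High and 0.33 in Low, a pair also picked after its values were seen. Mitochondrial thioredoxin, TXN2, was at 23.0 FPKM (16.0 to 30.1) in High and 28.6 FPKM (18.4 to 38.8) in Low. The reductases are selenoproteins that recharge thioredoxin with NADPH. TXNRD1, the cytosolic form, was at 21.2 FPKM (15.1 to 27.2) in High and 23.1 FPKM (15.3 to 31.0) in Low, and its sign turned positive after quantile normalization. The mitochondrial TXNRD2 was at 3.34 FPKM in High and 3.86 FPKM in Low, and TXNRD3 had the higher value in High, at 8.73 against 8.52 FPKM in Low.

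The 11 thioredoxin-domain rows had a median of -0.17, with 9 lower and 1 higher in High. TXNL1, a thioredoxin-like protein of the proteasome, was at 54.6 FPKM (38.8 to 70.5) in High and 59.8 FPKM (39.2 to 80.4) in Low, and it turned positive after quantile normalization. TXNDC12, of the endoplasmic reticulum, was at 33.6 FPKM (23.2 to 44.0) in High and 38.4 FPKM (24.2 to 52.5) in Low. It shares its assembled locus with a KTI12 row. TXNL4A, TXNDC15 and TXNDC4 had differences of -0.21 to -0.17, and TXNDC11 one of -0.04 that turned positive under both scalings. TXNDC17 and TXNDC9 had the largest differences of the group, -0.31 each. TXNL4B, related to a component of the spliceosome, had the higher value in High, at 4.51 against 4.29 FPKM in Low. The sperm thioredoxins TXNDC2 and TXNDC8 were at 0.0460 FPKM and 0 FPKM in High against 0.0712 FPKM and 0 FPKM in Low.

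Peroxiredoxins are abundant peroxidases, and thioredoxin recharges most of them. All 6 were lower in High, at differences of -0.48 to -0.26 with a median of -0.33. All 6 had a mean of 20 FPKM or more, where 82.3% of all rows were lower in High, with a median of -0.19. The peroxiredoxin median was -0.22 after median-of-ratios scaling and -0.13 after quantile normalization. PRDX2, abundant in neurons and red cells, was at 213 FPKM (152 to 275) in High and 267 FPKM (173 to 361) in Low. PRDX3, the mitochondrial form, was at 93.8 FPKM (67.0 to 121) in High and 119 FPKM (76.8 to 162) in Low. PRDX1 had the largest difference of the family, at 59.8 FPKM (38.7 to 80.9) in High and 83.7 FPKM (49.1 to 118) in Low. Its assembled locus is shared with an MMACHC row. The makeup of the family was alike in both groups, with PRDX2 at 46.6% of its summed FPKM in High and 45.9% in Low and PRDX3 at 20.5% in both. PRDX5, PRDX4 and PRDX6 were at 51.1, 20.1 and 19.6 FPKM in High and at 61.4, 25.0 and 25.0 FPKM in Low. The haemoglobin rows HBB (102 FPKM in High, 239 FPKM in Low) and HBA (55.0 FPKM in High, 146 FPKM in Low) were lower in High as well, and their intervals were apart. In the whole blood list 9 of 10 rows were lower in High, with a summed level of 161 FPKM in High and 393 FPKM in Low. Of those rows, 4 were at 1 FPKM or more, and none was at 0 in both groups. The part of blood in the peroxiredoxin values was not tested.

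**Figure D4:**
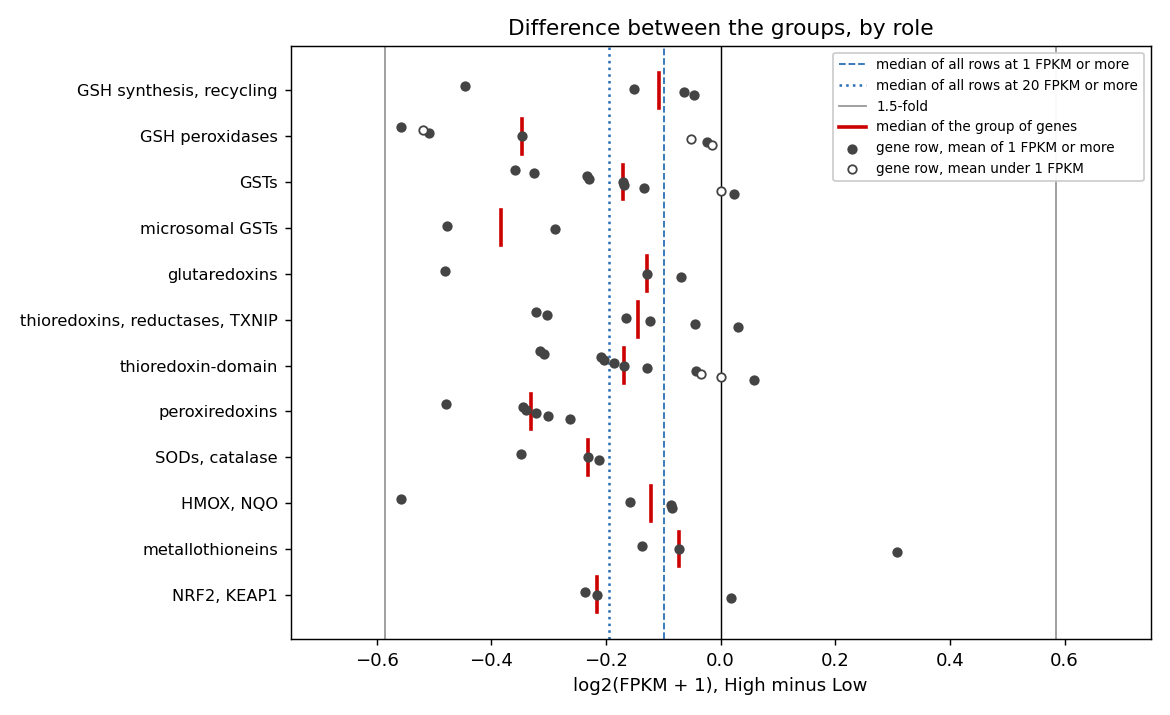
Difference in log2(FPKM + 1), High minus Low, of the 61 rows by role, with the median of each role as a red bar and open circles for rows under 1 FPKM. All points lie between the 2 grey lines at 1.5-fold, the 6 peroxiredoxins lie left of both blue lines (medians of all rows at 1 FPKM or more and at 20 FPKM or more), and MT1A stands alone on the right at 0.31. PRDX2 (-0.32) and PRDX3 (-0.35) had means of 100 FPKM or more, where the median of all rows, not drawn, was -0.29.

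Superoxide dismutases and catalase were all lower in High, with a median of -0.23. Of all rows, 81.0% were lower in High at 20 to 100 FPKM and 87.7% at 100 FPKM or more. Besides SOD1, the mitochondrial manganese enzyme SOD2 was at 31.5 FPKM (22.5 to 40.5) in High and 36.7 FPKM (24.1 to 49.2) in Low. SOD1 stood at 10.0 times SOD2 in High and 10.1 times in Low, so the RNA ratio of this pair was close in both groups. This pair was also picked after its values were seen. Catalase, CAT, the peroxisomal enzyme that splits hydrogen peroxide, was at 41.8 FPKM (30.0 to 53.5) in High and 53.4 FPKM (35.0 to 71.8) in Low, a difference of -0.35. Its Low value lay just inside the High interval. SOD1 turned to 0.06 after quantile normalization.

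HMOX1, the stress-inducible haem oxygenase and a classic NRF2 target, had the largest difference of all 61 rows on this scale, -0.56, closely followed by GPX8. It was at 3.60 FPKM (1.85 to 5.36) in High and 5.78 FPKM (2.76 to 8.79) in Low, and its row lies on an unplaced scaffold. The constitutive form HMOX2 was at 41.2 FPKM (29.4 to 53.0) in High and 43.8 FPKM (28.7 to 58.9) in Low. NQO1, the quinone reductase most used as a readout of NRF2, was at 20.2 FPKM (13.8 to 26.5) in High and 22.6 FPKM (14.5 to 30.8) in Low. NQO2 was at 12.3 FPKM in High and 13.1 FPKM in Low. The signs of HMOX2 and NQO2 turned positive under both scalings. Other known NRF2 targets among these genes differed in size: GCLC and PRDX1 had differences of -0.45 and -0.48, and GCLM, TXNRD1 and NQO1 had differences between -0.16 and -0.05.

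NRF2 itself, NFE2L2, was at 29.0 FPKM (20.4 to 37.6) in High and 33.8 FPKM (22.1 to 45.6) in Low, a difference of -0.22. KEAP1 had 2 rows on chromosome 2. The first was at 12.1 FPKM (8.27 to 15.8) in High and 14.4 FPKM (9.18 to 19.6) in Low. The second was at 5.66 FPKM (3.11 to 8.20) in High and 5.58 FPKM (2.12 to 9.03) in Low, and it shares its assembled locus with PDE4A and S1PR5 rows. KEAP1 reads may be split between the rows, so both values are uncertain.

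Metallothioneins had a median of -0.07 and a mean of 0.03, which differ in sign, over 3 rows on chromosome 6. The row named MT2A was at 212 FPKM (148 to 277) in High and 223 FPKM (143 to 304) in Low, and the reference table gives it the symbol MT1X. MT1A had the highest difference of all rows, 0.31, at 102 FPKM (0 to 221) in High and 82.4 FPKM (0 to 219) in Low. With lower bounds of 0 in both groups, these values do not set a direction. MT3 and MT1A share 1 assembled locus on Sscrofa10.2 (26353887 to 26411796) with a pair of unnamed rows. Metallothionein genes are alike in sequence to differing degrees, so the split of reads among these rows is uncertain. MT2A and MT3 turned positive after quantile normalization, and MT2A also after median-of-ratios scaling.

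In 5 of the 55 rows at 1 FPKM or more, GCLC, GPX8, GPX7, PRDX1 and HMOX1, the Low value lay above the upper bound of High. That held for 9.06% of the 15281 rows at that level, and among the 30 rows at 20 FPKM or more PRDX1 was the 1 row, against 14.4% of the table, so the counts are not above the background. On linear values, GPX7, HMOX1 and GPX8 had High to Low ratios of 0.54, 0.62 and 0.63. The pseudocount of 1 keeps them inside 1.5-fold on the log scale: with 0.5 or 0.1 in its place, these 3 and a GPX5 row passed as lower in High, 4 of 61, against 4.08% and 6.60% of all rows.

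The reference table places 3 rows outside the name rule in these families. SRXN1, the sulfiredoxin that repairs overoxidised peroxiredoxins, was at 31.4 FPKM (22.2 to 40.5) in High and 37.3 FPKM (24.6 to 50.0) in Low. SOD3, the secreted dismutase, was at 0.894 FPKM (0 to 3.18) in High and 3.43 FPKM (0 to 9.24) in Low, a difference of -1.23, beyond the range of the 61 rows, with lower bounds of 0 in both groups. GSTO2 was at 0.168 FPKM in High and 0.187 FPKM in Low.

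Other genes of the pathway, taken from fixed lists, had medians between -0.25 and -0.01. NADPH supply, which feeds both reductases, had 14 rows, all at 1 FPKM or more and all lower in High, with a median of -0.21. Of all rows, 67.7% were lower in High at 1 FPKM or more and 82.3% at 20 FPKM or more. Within NADPH supply TKT was at 47.6 FPKM in High and 52.9 FPKM in Low, and 0 rows of the list passed 1.5-fold. Cysteine supply and glutathione turnover had 12 lower and 6 higher rows and a median of -0.08, and glyoxalases and related enzymes 10 lower and 4 higher rows and -0.10. Oxidant sources had 7 lower and 6 higher rows and a median of -0.01. In these 3 lists 0 rows passed 1.5-fold.

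Genes past 1.5-fold in the other pathway lists were all lower in High. Of all rows with an estimate, 3.08% passed as lower in High, and at 1 FPKM or more 4.49% passed as lower and 1.85% as higher. SEPP1, the selenoprotein that carries selenium to the brain, was at 89.1 FPKM (63.4 to 115) in High and 150 FPKM (93.7 to 206) in Low. With SELENBP1 it made 2 of 20 rows of the selenoprotein list, whose median was -0.15. MSRB3, a methionine sulfoxide reductase, was 1 of 11 rows of the repair list (median -0.25), at 2.58 FPKM in High and 4.74 FPKM in Low. MAFF, a small MAF partner of NRF2, was 1 of 12 rows of its list (median -0.06), at 2.23 FPKM in High and 5.04 FPKM in Low. The ferritin light chain FTL was 1 of 12 other NRF2 targets (median -0.11), at 654 FPKM (449 to 860) in High and 1045 FPKM (572 to 1518) in Low. Transferrin, TF, an oligodendrocyte and choroid plexus product, was 1 of 16 rows of metal handling (median -0.12), at 214 FPKM (146 to 281) in High and 399 FPKM (206 to 591) in Low. All these intervals overlapped. The medians of the NRF2 partners and the oxidant sources turned positive under both scalings.

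Markers of several cell types of the tissue piece had larger differences between the groups than the antioxidant genes. In bulk tissue fewer cells of a type and less RNA per cell cannot be told apart. Hypothalamic neuron markers checked the label and were present in both groups: 18 of 20 rows were at 1 FPKM or more, with a summed level of 1196 FPKM in High and 919 FPKM in Low, and 14 rows were higher in High. The marker lists were chosen with earlier results of these data known, so their counts are no independent support. A lower value in High was found in 67.7% of all rows at 1 FPKM or more. Fibroblast, mural and meningeal markers had a median of -1.34, with 14 of 14 rows, under 12 symbols, lower in High. Of these rows 9 had intervals apart, against 0.273% of all rows with an estimate. Their summed level was 116 FPKM in High and 306 FPKM in Low. COL3A1, a fibrillar collagen, was at 4.20 FPKM in High and 21.5 FPKM in Low. Oligodendrocyte markers had a median of -0.74, with 10 of 10 rows lower in High and sums of 3140 FPKM in High and 4887 FPKM in Low. Microglial markers had a median of -0.52, with 11 of 11 rows lower in High and sums of 436 FPKM in High and 624 FPKM in Low.

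Astrocyte markers had a median of -0.23, with 7 of 8 rows lower in High and sums of 2773 FPKM in High and 3473 FPKM in Low. The median was -0.19 for the antioxidant genes and also -0.19 for all rows at 20 FPKM or more. Endothelial markers had a median of -0.27 with 6 of 6 rows lower in High and sums of 37.4 FPKM in High and 46.4 FPKM in Low. Choroid plexus and ependymal markers had a median of -0.44 with 7 of 9 rows lower in High and sums of 334 FPKM in High and 509 FPKM in Low. Anterior pituitary markers had a median of -0.64 with 7 of 8 rows lower in High and sums of 344 FPKM in High and 682 FPKM in Low. Most of these sums was PRL, at 279 FPKM (174 to 384) in High and 570 FPKM (102 to 1039) in Low. Of the 8 rows, 5 were at 1 FPKM or more. General neuronal markers had a median of -0.11, which turned positive under both scalings, and a mean of 0.003, with 6 of 10 rows lower in High and sums of 1266 FPKM in High and 1337 FPKM in Low. None of the matched markers in these lists was listed at 0 in both groups. The part of any of these cell types in the antioxidant values was not tested.

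**Figure D5:**
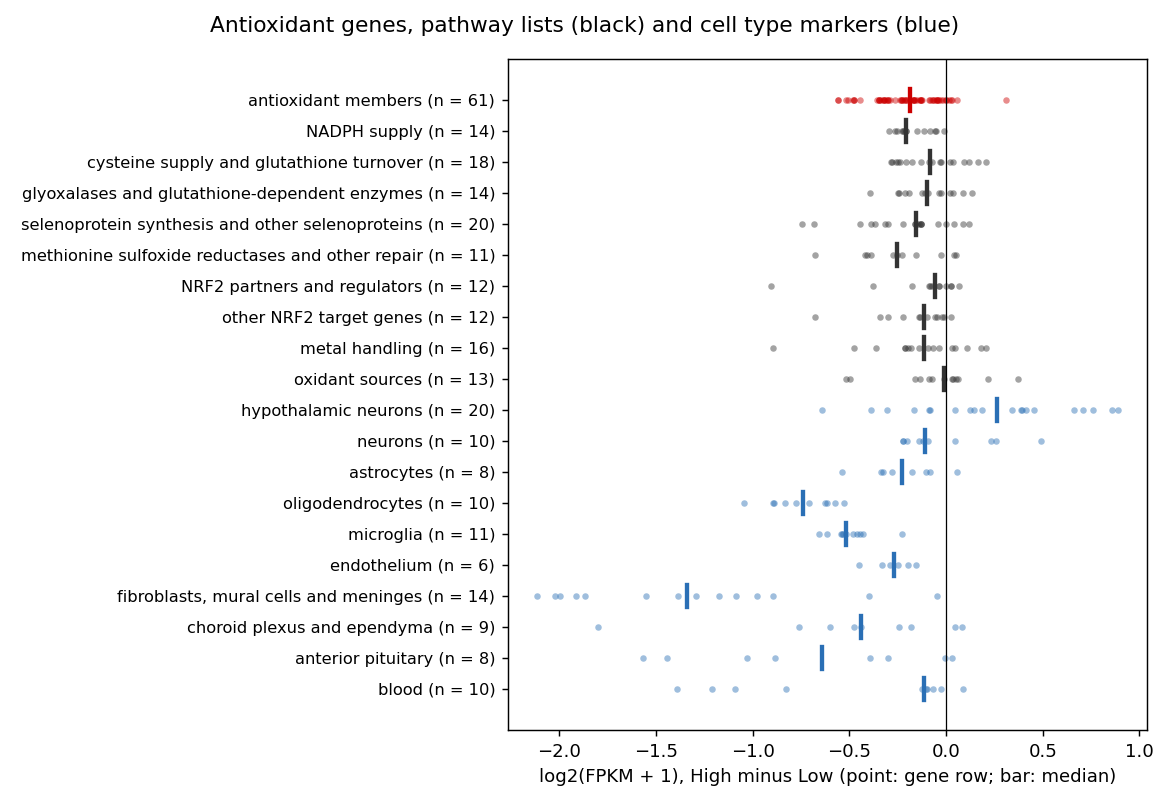
Difference in log2(FPKM + 1), High minus Low, of single gene rows (points) and their median (bar) for the 61 antioxidant rows (red), the 9 pathway lists (black) and the 10 cell type marker lists (blue). The antioxidant rows have a median of -0.19 and all lie between -0.56 and 0.31, while fibroblast, oligodendrocyte and microglial markers lie further to the left and hypothalamic neuron markers mostly to the right of 0.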

How the data were processed

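RNA from 10 hypothalami was sequenced as paired-end TruSeq libraries, per the labels' protocols. Build Sscrofa10.2, Cufflinks 2.0.2, TopHat2 2.0.5, Bowtie2, CASAVA, FastQC and Trim Galore are listed, without roles, per the submitters' processing notes. The authors deposited 1 FPKM value per gene and group with lower and upper bounds and a status, per the file headers; how animals were combined is not given in the sources used here. Rows without an estimate in 1 or both groups (58) were left out.

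Members were the rows whose name matched the family pattern, with no filter on level. Of 61 IDs, 41 were matched to the reference table, and 3 carry another symbol there. Differences are log2(FPKM + 1) of High minus Low, which shrinks the differences of genes at low levels. A row was counted past 1.5-fold on that scale, or apart where the deposited intervals did not overlap; neither is a test. A per-animal limma fit was planned only if the file held values per animal. The code was checked on simulated data. Members and lists were chosen with earlier results of these data known. Given in full were the 2 most abundant genes of each role and a fixed set (NFE2L2, KEAP1, GCLC, GCLM, GSS, GSR, TXN, TXNIP, TXNRD1, HMOX1, NQO1, CAT, SOD1, SOD2, GPX4 and metallothioneins). From other lists up to 3 genes apart, or else the most abundant, were named; rows past 1.5-fold, and the others, were named after their values were seen. Alternatives were pseudocounts, scalings, level filters, 1 row per symbol, other folds and the mean. The promoter motif count was not run. Python 3.11.15, pandas 2.3.3 and numpy 2.4.6 were used.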

Additional observations from a re-analysis of the deposited data

How the results depend on the processing

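The counts of 0 rows past 1.5-fold and 0 intervals apart held after median-of-ratios scaling, quantile normalization, filters at 1, 5 and 20 FPKM and 1 row per symbol. Rows past the fold with the lower value in High became 4 at a pseudocount of 0.1 and 4 at 0.5, where low genes weigh more, and 15 at a threshold of 0.32 on the log2 scale. Under each of these, 0 rows passed with the higher value in High. At 2-fold the count was 0. The median difference of -0.19 ran from -0.22 (pseudocount 0.1) to -0.05 (quantile normalization) and was -0.08 after median-of-ratios scaling, where the median of all rows at 1 FPKM or more moved from -0.10 to -0.01. The sign turned in 9 members after median-of-ratios scaling and in 16 after quantile normalization, so 45 and 38 of 61 rows stayed or became lower in High. The share of all rows lower in High after each scaling was not counted, so these counts have no background. The median of the glutaredoxins became 0.04 and that of the haem oxygenases and quinone reductases 0.01 after quantile normalization, and that of the metallothioneins 0.04 and 0.16 under the 2 scalings. The blood list median of -0.11 was -0.57 at a pseudocount of 0.1, -1.15 at 1 FPKM or more and -1.30 at both 5 and 20 FPKM or more, where fewer rows remain. The anterior pituitary median of -0.64 was -1.03 at 1 FPKM or more, -1.24 at 5 and -1.03 at 20. The filter at 20 FPKM was chosen after seeing the data. No paired analysis was possible because each group has a single deposited FPKM per gene, and single animals could not be left out for the same reason. The depth of the libraries is unknown.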
